A study of Mus musculus with 8 samples.

Results

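The genes described here encode the nuclear-encoded subunits of the oxidative phosphorylation complexes of mitochondria, together with complex I assembly factors that share their naming, and they were followed through 3 stages of early mouse development in connexin 43 knockout (KO) and wild-type (WT) material. They were chosen by name: symbols that begin with Nduf, Uqcr or Atp5, or with Cox and a digit of 4 to 8, and Sdha, Sdhb, Sdhc and Sdhd, leaving out pseudogenes. Of 18193 genes read by a probe set of their own, 90 met this rule, and 79 of these were among the 11745 genes kept by a filter on low signal. The rule uses no difference between stages or genotypes, but it was chosen with earlier results of these data known. Each gene was read by its probe set with the highest mean signal over the arrays, and the filter used the same mean. A gene dim in oocytes could thus be kept for its later signal, as was Atp5g1, at 42.8 and 12.8 in KO and WT oocytes. By complex, 6 of 6 core subunits of complex I were kept, 26 of 28 supernumerary subunits, 5 of 8 complex I assembly factors, 4 of 4 subunits of complex II, 8 of 8 of complex III, 13 of 19 of complex IV and 17 of 17 of complex V.

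RNA labelled as polyadenylated was hybridised to 8 Affymetrix mouse arrays of 45101 probe sets. The groups were KO and WT mature oocytes arrested in the second meiotic metaphase (MII oocytes, 1 array each), KO and WT blastocysts (2 arrays each) and KO and WT embryos taken from the implantation site (1 array each). The deleted gene is Gja1, which encodes connexin 43, a gap junction protein, and the stated aim was to follow its loss through these stages. By the series title the depletion was directed to oocytes; the part of Gja1 removed, the driver of the deletion, the strain, the age of the animals and any pooling of cells are not given in the sources used here. Whether the paired blastocyst arrays stand for separate embryos or cultures is not stated either, so p-values measure the spread between arrays, which may be technical. Oocytes and implantation sites have a single array per genotype, so their genotype differences are given as values, with a test only where it borrows the spread of the blastocyst pairs. The number of arrays limits the precision of every value.

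Oxidative phosphorylation passes electrons from NADH through complex I, or from succinate through complex II, to complex III, cytochrome c and complex IV, where oxygen is reduced. Complexes I, III and IV pump protons across the inner mitochondrial membrane, and complex V, the ATP synthase, uses the returning protons to make ATP. Core subunits of complex I include those that carry its flavin and iron-sulfur clusters. Supernumerary subunits surround the core, and assembly factors help to build the complex without staying in it. The mammalian egg carries a large store of mitochondria made during oocyte growth, mitochondrial DNA is not replicated in the first cleavages, and oxygen use is known to rise at the blastocyst stage.

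Before the results, the arrays themselves were compared. Signal is a linear intensity, scaled to a 2% trimmed mean of 500 per array, and median signals were 134 to 220. The 15 probe sets for Bacillus genes served as background, and the brightest of them read 334 and 132 on the KO and WT oocyte arrays, 395 and 560 on the blastocyst KO arrays, 199 and 219 on the blastocyst WT arrays, and 131 and 100 on the KO and WT implantation site arrays. A level is called above background here only where it exceeds that brightest control on its array, and 51 of the 90 members did so on all 8 arrays. Gja1 read 375 and 553 on the blastocyst KO arrays, against 9835 and 574 on the blastocyst WT arrays. The array labelled WT replicate 2 thus lies at the KO level of the targeted gene, which goes against its label, and KO against WT results in blastocysts are given with and without it. Gja1 read 150 on the KO and 126 on the WT oocyte array, and 28105 on the KO and 44493 on the WT implantation site array, so it does not check those labels. Oocyte markers (7 of 8) and trophectoderm markers (8 of 8) were above background on the oocyte and blastocyst arrays, in that order. On both implantation site arrays 10 of 10 markers of decidua and uterine stroma were above background, with summed signals of 161059 (KO) and 138346 (WT), against 1430 to 2886 in blastocysts. Such counts depend on each array's background: they were 9 of 10 on the WT oocyte array and 7 of 10 on the array labelled blastocyst WT replicate 2. Trophectoderm markers at implantation sites were 4 of 8, as on both oocyte arrays, with summed signals of 5157 (KO) and 3135 (WT), against 53449 to 66924 in blastocysts. The part of this change in cell types in the stage differences was not tested.

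Most members were lower in oocytes than in the later stages, though many were well above background in oocytes too. In blastocysts 58 of the 79 members kept were higher than in oocytes and 3 were lower, by limma over all 8 arrays with an adjusted p under 0.05, while 18 did not pass. Of all 11745 genes tested, 26.9% were higher and 18.6% lower in the same comparison. The members' median difference, blastocyst minus oocyte, was 2.02 on the log2 scale (4.07-fold), against 0.43 over all genes and 0.23 over the 2937 genes with the highest mean signal. At implantation sites 53 members were higher than in oocytes and 3 were lower (20.5% and 16.6% of all genes), with a median of 2.09 against -0.06 over all genes. Between the later stages the members divided: 8 were higher at implantation sites than in blastocysts and 20 were lower (15.3% and 20% of all genes), and the median was -0.15, against -0.36 over all genes. The sign of this last median depends on the scaling, and it was 0.17 when arrays were scaled to their hybridization controls and 0.21 when scaled to a common median. The 28 calls between the later stages were 16 without the KO implantation site array. In such bulk samples fewer cells of a type and less RNA per cell cannot be told apart, and the trimmed-mean scaling makes each signal relative to the rest of its array.

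**Figure D1:**
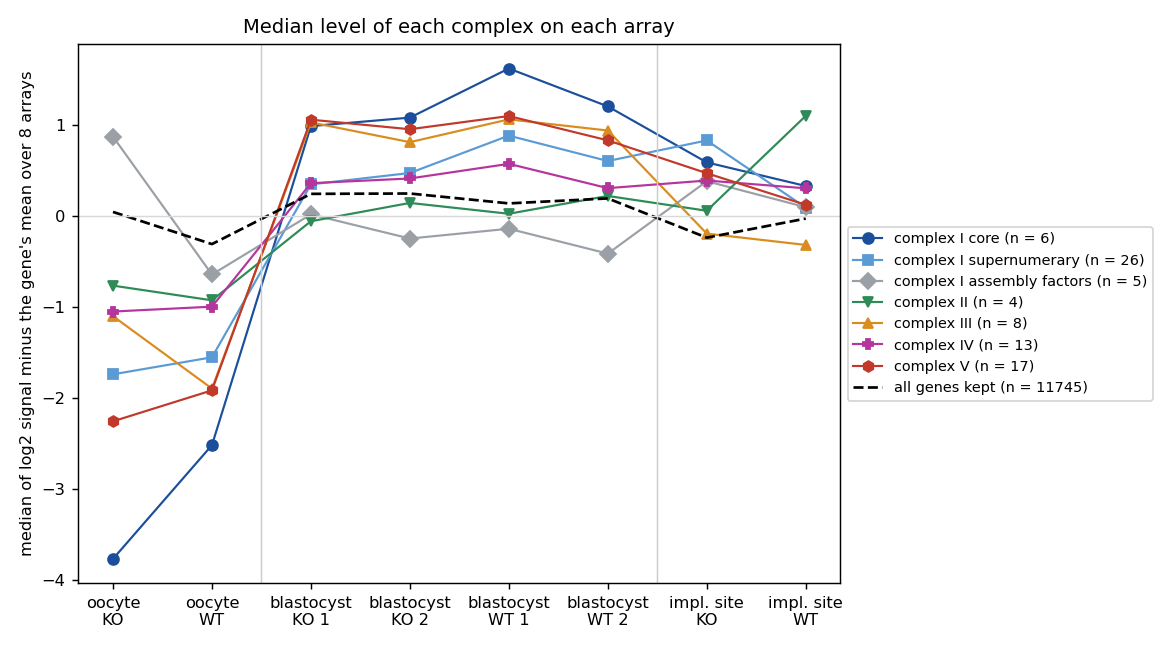
Median level of each complex on the 8 arrays, as log2 signal minus the gene's own mean over the arrays (vertical axis), with all genes kept as the dashed line. Complex I core subunits sit at -3.77 and -2.52 on the KO and WT oocyte arrays and at 0.99 to 1.62 on the blastocyst arrays, while complex I assembly factors do not follow this step.

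By complex, the medians of blastocyst minus oocyte were 4.13 for complex I core subunits, 1.98 for supernumerary subunits, 0.82 for complex II, 2.59 for complex III, 1.53 for complex IV, 2.86 for complex V and -0.29 for complex I assembly factors. Patterns over the 3 stages were then counted from the calls. The share of all genes with each pattern was not counted, so these counts describe the members alone and set no pattern apart from the background. The commonest, in 34 members, was higher in both later stages than in oocytes with no call between those stages. Another 10 were higher in both later stages but lower at implantation sites than in blastocysts, among them Atp5c1, Atp5d, Atp5g1, Cox4i1, Ndufs7, Ndufv2 and Uqcrfs1. Only 4 passed as higher at every step: Atp5j, Ndufa5, Ndufc1 and Ndufc2. In 7 members (Atp5g2, Atp5md, Cox5b, Cox8c, Ndufa9, Ndufab1 and Uqcr10) the blastocyst was higher than the oocyte and the implantation site was then lower than the blastocyst, with no call between implantation site and oocyte. In 10 members no stage comparison passed: Atp5l, Cox5a, Cox7c, Cox8a, Ndufa6, Ndufaf7, Ndufb2, Ndufs5, Sdhc and Uqcrh.

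Promoter sequences were set beside these patterns, because genes of these complexes are known as targets of the factors NRF1, of ETS factors such as GABP (NRF2) and of YY1. RefSeq windows on the mouse build GRCm38.p6 (250 bases before to 50 after the start, 300 in all) were found for 74 of the 90 members. A motif was counted on either strand: NRF1 as GCGCANGCG, ETS as CCGGAAG and YY1 as AAGATGGCG. NRF1 letters were in 27% of members' windows against 7.03% of all genes with a window, ETS letters in 25.7% against 9.93%, and YY1 letters in 9.46% against 1.64%. Any of these 3 was in 38 members (51.4%), against 16.5% of all genes. For comparison, the SP1 letters GGGCGG were in 47.3% of members and 38.2% of all genes, and the TATA letters TATAAA in 10.8% and 15.7%. Among the 50 members with a window that rose in blastocysts, NRF1 letters were in 24%, ETS letters in 30% and YY1 letters in 12%. Among the other 24 they were in 33.3%, 16.7% and 4.17%, which is 8, 4 and 1 genes. These 24 include members that the filter removed and that were not tested, such as Ndufaf5.

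The following windows show these letters, 5′ to 3′ along the gene's strand, with capitals marking matches to NRF1, ETS or YY1 letters. Ndufs7 (YY1, chr10:80249199-80249498, + strand), Ndufs8 (ETS, chr19:3912725-3913024, - strand) and Uqcrc1 (NRF1, chr9:108936398-108936697, + strand) belong to members that rose in blastocysts.
Ndufs7: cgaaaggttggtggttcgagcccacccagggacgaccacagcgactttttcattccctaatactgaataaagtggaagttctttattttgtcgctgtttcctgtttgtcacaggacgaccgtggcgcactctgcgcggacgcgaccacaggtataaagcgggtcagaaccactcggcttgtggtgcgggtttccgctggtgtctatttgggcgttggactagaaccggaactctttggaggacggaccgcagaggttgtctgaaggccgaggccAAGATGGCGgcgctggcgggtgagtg
Ndufs8: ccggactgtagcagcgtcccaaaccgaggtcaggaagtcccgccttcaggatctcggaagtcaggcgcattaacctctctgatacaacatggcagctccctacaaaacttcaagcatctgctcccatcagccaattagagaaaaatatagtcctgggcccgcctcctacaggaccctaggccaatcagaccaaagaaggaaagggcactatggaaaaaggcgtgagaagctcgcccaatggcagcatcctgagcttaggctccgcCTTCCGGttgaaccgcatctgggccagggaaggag
Uqcrc1: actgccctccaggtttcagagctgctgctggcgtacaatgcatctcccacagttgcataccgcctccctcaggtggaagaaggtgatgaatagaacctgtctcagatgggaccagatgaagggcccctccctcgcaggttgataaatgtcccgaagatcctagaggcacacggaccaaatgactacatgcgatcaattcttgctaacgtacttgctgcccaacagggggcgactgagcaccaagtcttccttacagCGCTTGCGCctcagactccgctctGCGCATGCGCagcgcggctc
Cox6a1 (chr5:115348909-115349208, - strand) rose too, and holds both NRF1 and ETS letters.
Cox6a1: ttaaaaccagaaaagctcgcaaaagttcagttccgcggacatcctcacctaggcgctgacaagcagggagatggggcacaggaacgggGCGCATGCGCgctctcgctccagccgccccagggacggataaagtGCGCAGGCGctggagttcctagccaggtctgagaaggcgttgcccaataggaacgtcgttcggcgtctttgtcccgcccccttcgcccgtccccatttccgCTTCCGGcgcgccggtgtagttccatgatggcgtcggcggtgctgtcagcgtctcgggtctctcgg
Ndufaf4 (chr4:24897833-24898132, + strand) and Ndufaf2 (chr13:108158576-108158875, - strand) are assembly factors that fell in blastocysts, the first with NRF1 letters and the second with none of the 3.
Ndufaf4: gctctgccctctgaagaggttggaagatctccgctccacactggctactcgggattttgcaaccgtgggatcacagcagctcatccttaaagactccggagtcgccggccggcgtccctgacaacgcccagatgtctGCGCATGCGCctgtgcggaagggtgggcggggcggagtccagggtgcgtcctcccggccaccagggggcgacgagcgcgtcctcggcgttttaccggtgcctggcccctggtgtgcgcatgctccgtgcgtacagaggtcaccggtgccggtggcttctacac
Ndufaf2: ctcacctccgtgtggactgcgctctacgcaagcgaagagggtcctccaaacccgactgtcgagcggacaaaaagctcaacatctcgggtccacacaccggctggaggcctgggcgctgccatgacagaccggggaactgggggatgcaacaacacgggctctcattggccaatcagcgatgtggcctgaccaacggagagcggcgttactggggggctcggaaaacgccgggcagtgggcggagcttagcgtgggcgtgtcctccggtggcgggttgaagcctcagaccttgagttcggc
The run of 10 capitals in Uqcrc1, Cox6a1 and Ndufaf4 reads the same on both strands and was counted as 2 overlapping NRF1 matches. A match describes letters in this window and is not a shown binding site.

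The core subunits of complex I had the largest median rise of the 7 groups. All 6 measured (Ndufs1, Ndufs3, Ndufs7, Ndufs8, Ndufv1 and Ndufv2) rose in blastocysts and were also higher at implantation sites than in oocytes. On the KO oocyte array 5 of the 6, all but Ndufv2, were below the background level. Ndufs7 (chromosome 10, 80249105 to 80256794), which carries the last iron-sulfur cluster before ubiquinone, read 129 on the KO and 215 on the WT oocyte array, 8711 and 8105 on the blastocyst KO arrays, 11988 and 8154 on the blastocyst WT arrays, and 3947 on the KO and 1897 on the WT implantation site array. All blastocyst and implantation site arrays lay above both oocyte arrays. Ndufs7 rose in blastocysts by 5.78 on the log2 scale (SE 0.38, adjusted p = 1.02e-06), with the KO oocyte array below background, and was 4.04 higher at implantation sites than in oocytes (adjusted p = 4.87e-05). It was lower at implantation sites than in blastocysts, with a log2 difference of -1.74 (adjusted p = 0.00485). Without the WT implantation site array this last difference was not called (-1.01). Its other probe set rose less, by 2.88 in blastocysts, and was 0.78 higher at implantation sites than in oocytes, which did not pass when only probe sets without a suffix were used.

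Ndufs8 (chromosome 19, 3908863 to 3912774), another iron-sulfur subunit, read 126 and 450 on the KO and WT oocyte arrays, 5281 and 6318 on the blastocyst KO arrays, 8615 and 6862 on the blastocyst WT arrays, and 3806 and 2513 on the KO and WT implantation site arrays. Its rise in blastocysts was 4.80 (27.9-fold, SE 0.42, adjusted p = 5.74e-06). Ndufv2 (chromosome 17, 66078795 to 66101559), which holds an iron-sulfur cluster beside the NADH site, read 370 and 612 in KO and WT oocytes, 10218 and 8051 in blastocyst KO, 16752 and 10230 in blastocyst WT, and 4118 and 3186 at KO and WT implantation sites. It rose by 4.52 in blastocysts (SE 0.34, adjusted p = 2.15e-06) and was -1.59 at implantation sites relative to blastocysts (adjusted p = 0.00426). Ndufv1, the flavin-binding subunit, rose by 3.74 in blastocysts (SE 0.55, adjusted p = 0.000193; 2.41 to 5.07 without single arrays), Ndufs1 by 2.91 (SE 0.57, adjusted p = 0.00143), which was 1.90 and not called without the WT oocyte array, and Ndufs3 by 2.02 (SE 0.41, adjusted p = 0.00177).

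Among the 26 supernumerary subunits kept, 20 rose in blastocysts and none fell, and at implantation sites 19 were higher and 1 was lower than in oocytes. Ndufb5, a subunit of the membrane arm, read 204 and 323 in KO and WT oocytes, 5710 and 5795 in blastocyst KO, 9281 and 6361 in blastocyst WT, and 5357 and 2646 at KO and WT implantation sites. It rose by 4.69 in blastocysts (SE 0.38, adjusted p = 3.07e-06). Ndufa2 read 79.5 in KO oocytes, below that array's background, and 722 in WT oocytes, against 4609, 4572, 5087 and 3871 on the blastocyst arrays (KO, KO, WT, WT) and 10500 and 5084 at KO and WT implantation sites. Its rise was 4.24 in blastocysts (SE 0.65, adjusted p = 0.000263) and 4.93 at implantation sites (SE 0.75, adjusted p = 0.000396). The first of these ran from 2.45 without the KO oocyte array to 6.02 without the WT oocyte array, so its size rests on the dim KO reading. Ndufa1, an X-linked subunit, read 1173 to 1611 in oocytes, 10560 to 20090 in blastocysts and 18012 to 19723 at implantation sites, and was 3.78 higher at implantation sites than in oocytes (SE 0.38, adjusted p = 3.10e-05).

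Between blastocysts and implantation sites the supernumerary subunits divided. Of the 26 kept, 4 were called higher at implantation sites and 4 lower (15.3% and 20% of all genes), with a median of 0.08. Ndufa5 (chromosome 6, 24518662 to 24527690) read 2363 and 5218 in KO and WT oocytes, 9529 and 8035 in blastocyst KO, 13035 and 9238 in blastocyst WT, and 53627 and 34805 at KO and WT implantation sites. No arrays of neighbouring stages overlapped. Its differences were 1.48 for blastocysts against oocytes (adjusted p = 0.00676) and 2.14 for implantation sites against blastocysts (SE 0.37, adjusted p = 0.00129). Ndufc1 read 893 and 2230 in KO and WT oocytes, 7826 to 13579 in blastocysts, and 28455 and 16727 at KO and WT implantation sites, with 1.19 between the later stages (adjusted p = 0.0338), which was 0.40 and not called without the KO implantation site array, and not called either without blastocyst KO replicate 1, KO replicate 2 or WT replicate 2. A further probe set of Ndufc1 went the other way between those stages (-0.83). Ndufs4, needed for a stable complex I, was not called in blastocysts (0.75, adjusted p = 0.0782) but read 4869 and 4850 at KO and WT implantation sites, against 779 to 1319 in blastocysts, a difference of 2.17 (adjusted p = 0.0005). Another Ndufs4 probe set was lower in both later stages than in oocytes, at -1.50 and -2.07, so its probe sets disagree. Ndufa10 and Ndufa9 were lower at implantation sites than in blastocysts. Ndufa10 read 920 and 918 at KO and WT implantation sites against 3049 to 5290 in blastocysts (-2.05, adjusted p = 0.000457), but its second probe set did not share this direction (0.68).

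Complex I assembly factors did not move with the subunits: of the 5 kept, 2 rose and 2 fell in blastocysts. Ndufaf2 (chromosome 13, 108052589 to 108158652), a late assembly factor related to the subunit Ndufa12, read 5558 and 5697 in KO and WT oocytes, 594 and 495 in blastocyst KO, 503 and 523 in blastocyst WT, and 1522 and 933 at KO and WT implantation sites. The oocyte arrays lay above all others. Its log2 difference was -3.42 in blastocysts (10.7-fold lower, SE 0.33, adjusted p = 1.08e-05) and -2.24 at implantation sites (adjusted p = 0.000891), and it was 1.18 higher at implantation sites than in blastocysts (adjusted p = 0.0182). Ndufaf4 (chromosome 4, 24898083 to 24905001), which acts with Ndufaf3 in building the complex, read 9860 and 11222 in KO and WT oocytes, 1450 and 2457 in blastocyst KO, 3249 and 2642 in blastocyst WT, and 6139 and 4193 at KO and WT implantation sites, with -2.16 in blastocysts (SE 0.35, adjusted p = 0.000397). Ndufaf1, a factor for the membrane arm, was not above background in oocytes (71.6 and 23.3 in KO and WT) and read 418 to 726 in blastocysts, which is at least 2.45-fold higher. Its limma call (adjusted p = 0.00101) used the measured oocyte signals and does not test this limit. Ndufaf8 rose by 1.13 in blastocysts (adjusted p = 0.0124), and Ndufaf7 was not called (-0.29, adjusted p = 0.697). Of 40 measured assembly factors of complexes II to V and others of complex I, 36 were kept. In blastocysts 22 of these rose and none fell (26.9% and 18.6% of all genes), with a median of 1.72.

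**Figure D2:**
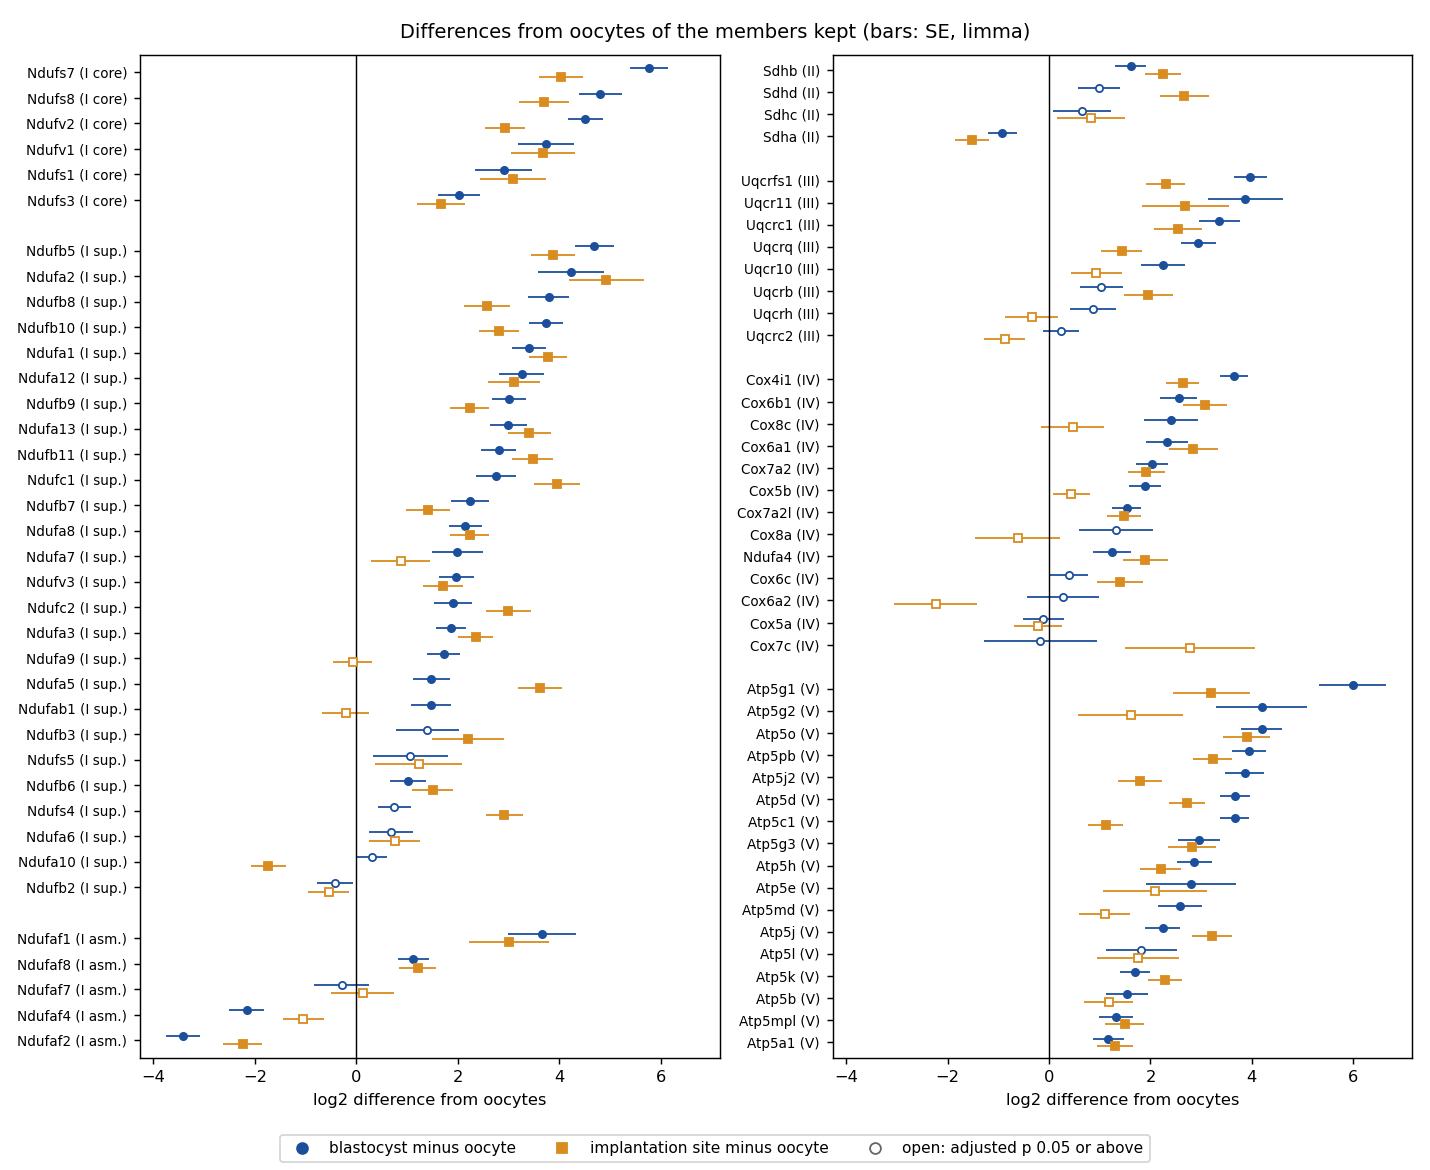
Log2 difference from oocytes of every member kept, grouped by complex, with blue circles for blastocysts, orange squares for implantation sites, bars for the SE and open symbols for an adjusted p of 0.05 or above. Most symbols lie right of 0, and Ndufaf2, Ndufaf4, Sdha and Ndufa10 are the members with a called symbol left of 0.

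Complex II, which also serves the tricarboxylic acid cycle and has no mitochondrially encoded subunit, was mixed. Sdhb, the iron-sulfur subunit, read 872 and 806 in KO and WT oocytes, 2288 to 2832 in blastocysts, and 3056 and 5185 at KO and WT implantation sites, and it rose by 1.61 in blastocysts (SE 0.30, adjusted p = 0.00102). Sdhd, a membrane anchor, was higher at implantation sites than in oocytes by 2.67 (adjusted p = 0.00119, 0.15 on its other probe set), and Sdhc, the other anchor, was called in no comparison. For Sdha (chromosome 13, 74322255 to 74350240), the flavoprotein, the result depended on the probe set. The probe set used here read 5478 and 5214 in KO and WT oocytes, 2604 and 2078 in blastocyst KO, 3413 and 3437 in blastocyst WT, and 1765 and 1972 at KO and WT implantation sites, and was called lower in blastocysts (-0.92, adjusted p = 0.0225) and at implantation sites (-1.52, adjusted p = 0.00423). A second probe set, whose suffix marks cross-matching sequence, read 605 and 235 in KO and WT oocytes, 1961, 1700, 3521 and 2649 in blastocysts (KO, KO, WT, WT) and 4699 and 3400 at KO and WT implantation sites, with 2.65 and 3.41 over oocytes. Sdha therefore has no settled direction across stages, which the plot of single members by array shows.

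**Figure D3:**
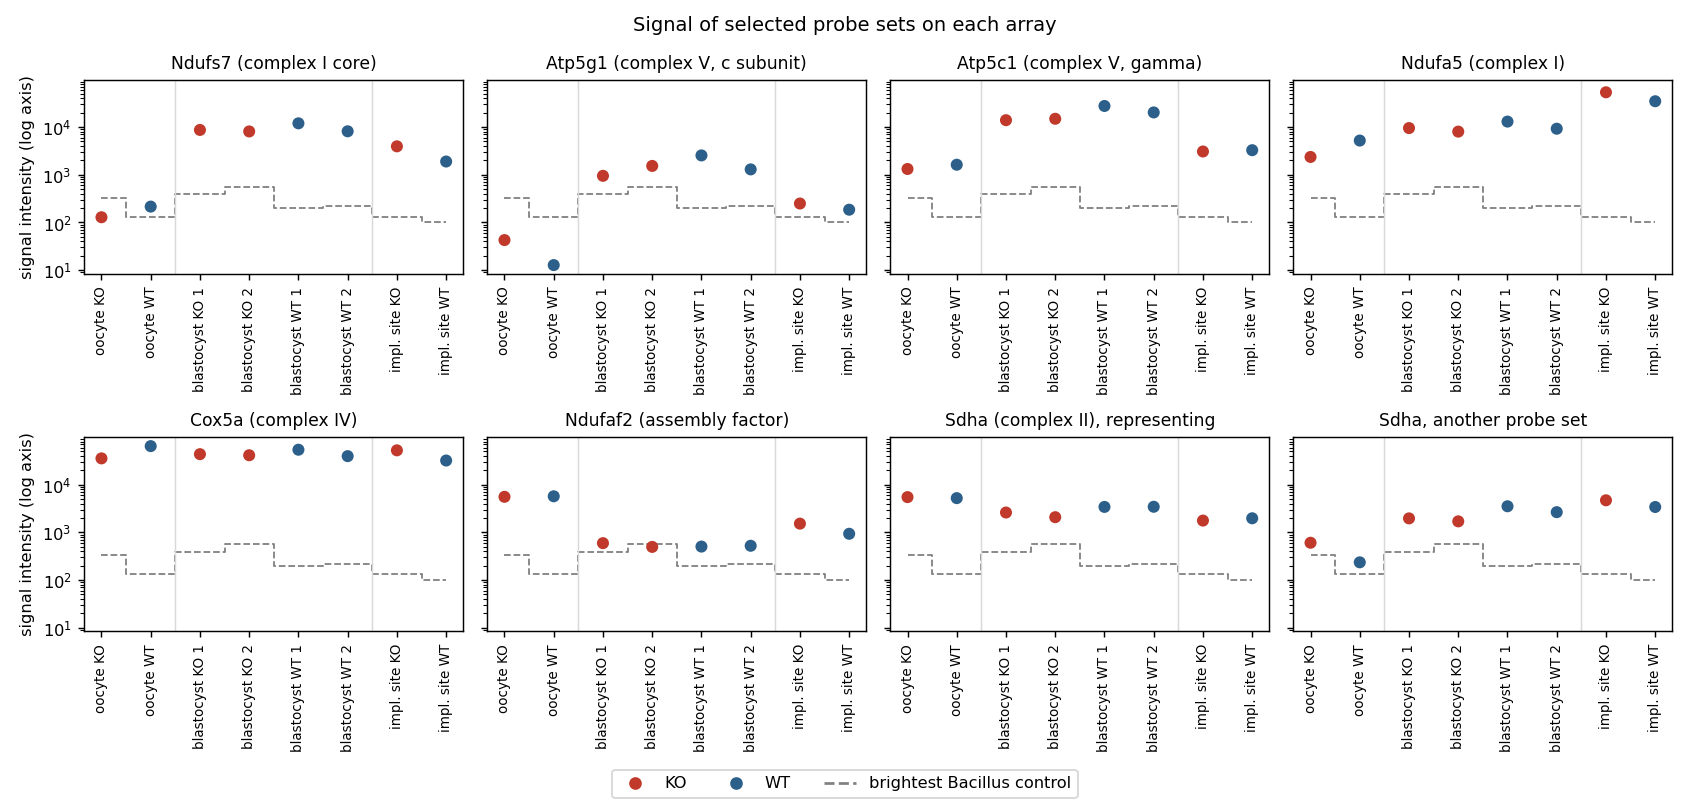
Signal (log axis) of 7 members and of a second Sdha probe set on each of the 8 arrays, KO in red and WT in blue, with the brightest Bacillus control of each array as a dashed line. Ndufs7, Atp5g1 and Atp5c1 step up between oocytes and blastocysts, Ndufa5 climbs again at implantation sites, Cox5a stays high throughout, Ndufaf2 drops after the oocyte, and the Sdha probe sets run in opposite directions.

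In complex III 5 of 8 members rose in blastocysts, none fell, and 4 were lower at implantation sites than in blastocysts. Uqcrfs1 (chromosome 13, 30540312 to 30545316), the Rieske iron-sulfur protein, read 194 and 365 in KO and WT oocytes, 3288 and 3561 in blastocyst KO, 5068 and 5020 in blastocyst WT, and 1393 and 1230 at KO and WT implantation sites. It rose by 3.96 in blastocysts (15.6-fold, SE 0.33, adjusted p = 3.51e-06), and the implantation site was then -1.67 relative to the blastocyst (adjusted p = 0.00264). Uqcrc1, a core protein, was not above background in oocytes (127 and 115 in KO and WT), and its 1059 to 1652 in blastocysts were at least 5.90-fold higher. The limma call of Uqcrc1 (adjusted p = 5.24e-05) used the measured oocyte signals and does not test this limit. The second core protein, Uqcrc2, was bright in all stages, at 17379 and 25858 in KO and WT oocytes, 19496 to 34262 in blastocysts, and 13653 and 9778 at KO and WT implantation sites. Its only call was for implantation sites against blastocysts (-1.12, adjusted p = 0.0284). Uqcrb, which binds ubiquinone, had 19478 and 39593 in KO and WT oocytes and 118411 and 98144 at KO and WT implantation sites, where it was 1.96 higher (adjusted p = 0.00782), and a dimmer probe set of it rose further (3.46). Uqcrq was called higher at implantation sites than in oocytes (1.43), although 2 further probe sets of it pointed down (-1.11 and -1.74).

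Cytochrome c1 (Cyc1), the catalytic partner that lies outside the naming rule, read 853 and 814 in KO and WT oocytes, 12972 to 18354 in blastocysts, and 7400 and 7588 at KO and WT implantation sites, with a rise of 4.10 in blastocysts (SE 0.28, adjusted p = 1.39e-06). Somatic cytochrome c (Cycs) rose by 1.86 (adjusted p = 0.00176). The testis form Cyct was not called between blastocysts and oocytes (0.89, adjusted p = 0.275) and was lower at implantation sites than in blastocysts (-2.56, adjusted p = 0.00916).

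Several subunits of complex IV are known to come as tissue isoforms. Of 13 kept, 8 rose in blastocysts and none fell. Cox4i1 (chromosome 8, 120668225 to 120674209), the general form of subunit 4, read 1032 and 1358 in KO and WT oocytes, 15552 and 14924 in blastocyst KO, 14972 and 13915 in blastocyst WT, and 7877 and 6852 at KO and WT implantation sites. It rose by 3.65 in blastocysts (SE 0.28, adjusted p = 2.42e-06). Its isoform Cox4i2 never exceeded the brightest background control on any array. Cox6a1, the general subunit 6a, rose by 2.33 in blastocysts (adjusted p = 0.000807), while Cox6a2, the form known from heart and skeletal muscle, was not called there (0.28) and read 64.2 at KO and 355 at WT implantation sites, against 454 to 1341 in blastocysts (-2.52, adjusted p = 0.0187). Of the 8 arrays, the KO implantation site array alone was not above background for Cox6a2, and without that array the last difference was -0.93 and not called. It was -2.24 and not called without blastocyst KO replicate 2. Cox6b1 rose by 2.56 in blastocysts (adjusted p = 0.000182), and its testis counterpart Cox6b2 did not pass the filter. Cox7a2 rose by 2.02 (adjusted p = 0.000295) and Cox7a2l, known for joining complexes III and IV, by 1.53 (adjusted p = 0.00107), and the muscle form Cox7a1 did not pass the filter. Cox8a, the general subunit 8, varied widely within blastocysts and was called in no stage comparison. Cox8c, a form known from testis, read 104 and 461 in KO and WT oocytes, 913 to 1405 in blastocysts and 237 and 387 at KO and WT implantation sites, and rose by 2.41 in blastocysts (adjusted p = 0.00337), a call lost without the KO oocyte array (1.43).

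For some complex IV transcripts the probe set used here was bright in the egg. Cox5a, a matrix-side subunit, read 35531 and 64200 in KO and WT oocytes, 43548, 41301, 53966 and 39565 in blastocysts (KO, KO, WT, WT), and 52375 and 32045 at KO and WT implantation sites. Its stages overlapped, and neither later stage was called against oocytes (-0.11 and -0.22). Cox6c likewise read 12833 and 22238 in KO and WT oocytes and 16286 to 30428 in blastocysts (0.39, adjusted p = 0.447), then 55292 and 36058 at KO and WT implantation sites (1.40 over oocytes, adjusted p = 0.029). For both genes a further probe set did not share this: that of Cox6c, without a suffix, read 1151 and 1449 in KO and WT oocytes and 8471 to 13492 in blastocysts (2.98), and that of Cox5a without a suffix was 1.07 in blastocysts. Whether these transcripts were high in the egg is therefore not settled. The partner of Cox5a on the matrix side, Cox5b, did rise in blastocysts, by 1.89 (adjusted p = 0.000463). Ndufa4, first placed in complex I and now known as a subunit of complex IV, rose by 1.24 (adjusted p = 0.0199).

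In complex V 16 of 17 members rose in blastocysts, the exception being Atp5l (1.82, adjusted p = 0.0523), and 12 were higher at implantation sites than in oocytes. The c subunit, which forms the rotating ring, is encoded by 3 genes for the same mature protein. Atp5g1 (chromosome 11, 96072793 to 96075694) was not above background in oocytes, with 42.8 and 12.8 in KO and WT, and read 950 and 1533 in blastocyst KO, 2546 and 1297 in blastocyst WT, and 250 and 185 at KO and WT implantation sites. This is at least 7.05-fold higher in blastocysts than in oocytes and at least 1.02-fold higher at implantation sites. At implantation sites the mean signal of 215 lay close to the limit of 210 set by background in oocytes. The limma calls (adjusted p = 2.55e-05 and 0.00647) used the measured oocyte signals and do not test these limits. Atp5g2 read 472 in KO oocytes and 16.5, below background, in WT oocytes, 1961 and 2039 in blastocyst KO, 738 and 2292 in blastocyst WT, and 239 and 304 at KO and WT implantation sites, a rise of 4.19 in blastocysts (SE 0.90, adjusted p = 0.00256). Without the WT oocyte array this was 1.92 and not called, and without the KO oocyte array 6.46. Atp5g3 read 2084 and 3907 in KO and WT oocytes, 12259 to 30894 in blastocysts and 22545 and 18046 at KO and WT implantation sites, a rise of 2.96 (SE 0.41, adjusted p = 0.000127). After the blastocyst Atp5g1 and Atp5g2 fell (-2.78 and -2.58, adjusted p = 0.00769 and 0.0433), and Atp5g3 was not called (-0.14, adjusted p = 0.812). The fall of Atp5g2 was not called without the KO implantation site array (-1.39), nor without any single blastocyst array. Whether the 3 copies differ in this step was not tested.

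Of the catalytic head, the alpha subunit Atp5a1 rose by 1.17 in blastocysts (adjusted p = 0.00853) and the beta subunit Atp5b by 1.53 (adjusted p = 0.0104). Atp5c1 (chromosome 2, 10056030 to 10080510), the gamma subunit that forms the rotating shaft, read 1322 and 1625 in KO and WT oocytes, 13950 and 14925 in blastocyst KO, 27688 and 20286 in blastocyst WT, and 3077 and 3277 at KO and WT implantation sites. It rose by 3.66 in blastocysts (12.6-fold, SE 0.29, adjusted p = 3.11e-06), and was -2.54 at implantation sites relative to blastocysts (adjusted p = 0.000103), where a second, dimmer probe set was higher (1.52). Atp5d, the delta subunit of the shaft, rose by 3.66 (adjusted p = 3.51e-06). Of the peripheral stalk, which holds the head still, Atp5pb read 1137 and 1121 in KO and WT oocytes, 14970 to 20919 in blastocysts and 14519 and 7664 at KO and WT implantation sites, with a rise of 3.94 (SE 0.33, adjusted p = 3.76e-06). Atp5o, another stalk subunit, was not above background in oocytes (103 and 70.5 in KO and WT) and was at least 7.39-fold higher in blastocysts and at least 6.02-fold higher at implantation sites. These limits hold for the probe set used here. The other probe set of Atp5o had log2 differences from oocytes of 4.05 in blastocysts but 1.38 at implantation sites. Atp5j, also of the stalk, read 616 and 1615 in KO and WT oocytes, 4025 to 6108 in blastocysts, and 9830 and 8709 at KO and WT implantation sites, rising by 2.24 and then by 0.97 (adjusted p = 0.000288 and 0.0481). The second step was not called without the KO implantation site array or without any single blastocyst array.

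Where a called member had further probe sets above the filter, those mostly shared its direction. Among members that rose in blastocysts, 50 of 51 further probe sets were higher there. For implantation sites against oocytes it was 42 of 47 among the higher members and 0 of 2 among the lower ones. For implantation sites against blastocysts it was 5 of 8 among the higher and 15 of 18 among the lower members. When only probe sets without a suffix were used, which left 56 members, 40 were called between blastocysts and oocytes.

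Other mitochondrial genes were read from lists chosen by role. For comparison, 26.9% of all genes rose in blastocysts and 18.6% fell. Of 15 tricarboxylic acid cycle genes kept, 10 rose in blastocysts and 1 fell. Idh3b, a regulatory subunit of NAD-dependent isocitrate dehydrogenase, read 59.8 and 215 in KO and WT oocytes, 4970 to 8283 in blastocysts, and 1480 and 1943 at KO and WT implantation sites, a rise of 5.79 (SE 0.35, adjusted p = 7.73e-07). The KO oocyte reading of Idh3b was below background, so the size of this rise rests partly on dim signal. Citrate synthase (Cs), the entry enzyme of the cycle, was the one that fell: it read 21006 and 26229 in KO and WT oocytes and 7237 to 10993 in blastocysts (-1.50, adjusted p = 0.00268). Of 21 genes of mitochondrial biogenesis, 10 rose in blastocysts and 2 fell. The coactivator Pprc1 rose by 4.93 (adjusted p = 2.55e-06), the leucine-rich RNA-binding protein Lrpprc by 4.30 (adjusted p = 0.00116), and the mitochondrial transcription terminator Mterf1a fell (-3.86, adjusted p = 0.0018). Nrf1 itself rose by 1.16 (adjusted p = 0.0324) and Gabpa by 2.14 (adjusted p = 0.000558).

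Of 8 genes for adenine nucleotide exchange and ATP synthase inhibition, 6 rose and 1 fell in blastocysts (26.9% and 18.6% of all genes). The ADP/ATP carriers went opposite ways. Slc25a31, a carrier known from germ cells, read 3226 and 3337 in KO and WT oocytes, 35.5 to 257 in blastocysts, and 6.35 and 103 at KO and WT implantation sites, a difference of -4.83 in blastocysts. Among the blastocyst arrays only that labelled WT replicate 1 read it above background, so the size of this fall rests on dim signal. Slc25a4, the carrier of heart and muscle, rose by 4.14 (adjusted p = 7.73e-06). The only mitochondrially encoded subunit with a listed probe set, ND5, read 13855 and 24490 in KO and WT oocytes, 7014 to 13092 in blastocysts, and 9994 and 3733 at KO and WT implantation sites. Its difference was -1.06 in blastocysts (adjusted p = 0.0707) and -1.59 at implantation sites (adjusted p = 0.0286), so it did not share the direction of the nuclear subunits.

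The genotypes were then compared within each stage. In blastocysts no member passed between KO and WT by limma on the 4 arrays, and of all 11745 genes 0.102% were called higher in KO and 0% lower. At an unadjusted p under 0.05, 2 members were higher (Atp5md, Cox8a) and 3 lower in KO (Atp5b, Ndufs3, Ndufs5), against 8.77% and 6.72% of all genes, so the members' shares of 2.53% and 3.8% were below the background. The members' median difference, KO minus WT, was -0.22, with 62 of 79 lower in KO, where 50.6% of all genes were lower. The median over all genes was -0.01, but over the 2937 brightest genes it was -0.32, and 54 of the 79 members are among these. Both KO arrays lay below both WT arrays in 29 members (25.3% of all genes) and above them in 4 (23.8% of all genes). All 6 complex I core subunits were lower in KO on the probe sets used here, with a median of -0.47. Of the 2937 brightest genes, 2175 were lower too. Further probe sets above the filter ran from -0.99 to 0.37 for Ndufs8, -0.39 to 0.058 for Ndufv1 and -0.25 to 0.39 for Ndufv2. When single arrays were left out, Ndufs7 ran from -0.51 to 0.043 and Ndufv1 from -0.39 to 0.28.

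Ndufs3 read 678 and 1135 in blastocyst KO, against 2142 and 1599 in blastocyst WT, a difference of -1.08 (SE 0.38, adjusted p = 0.264). Atp5b, the catalytic beta subunit, read 1327 and 1835 in KO, against 5073 and 2616 in WT (-1.22, SE 0.38, adjusted p = 0.225). In both genes the genotypes did not overlap, yet neither passed the adjustment. Atp5md, a small subunit that helps ATP synthase form dimers, read 9359 and 11537 in KO, against 5067 and 3700 in WT (1.26, SE 0.30, adjusted p = 0.154). Cox8a read 4182 and 1186 in KO, against 745 and 423 in WT (1.99, SE 0.59, adjusted p = 0.208). Ndufs1 read 586 and 2018 in KO, against 2520 and 1884 in WT, so its groups overlapped. Without the array labelled WT replicate 2 the members' median was -0.45, and no member passed the adjustment (2.5% of all genes higher, 0.187% lower). In that fit the WT arm is 1 array assumed to vary like the KO pair. At an unadjusted p under 0.05, 18 members were lower and 4 higher in KO there, against 10% and 13.5% of all genes. Without WT replicate 1 the median was -0.10. Over the 4 pairs of a KO and a WT array it ran from -0.45 to -0.07, and the WT arrays differed from each other by a median of 0.39. The ratio of 3′ to 5′ Actb probe sets, a measure of RNA length, separated the genotypes too, at 25.7 and 39.0 in blastocyst KO against 69.3 and 69.1 in blastocyst WT, while that of Gapdh ran the other way, at 11.2 and 11.8 in KO against 7.27 and 7.71 in WT. Its part in the members' values was not tested. Leukocyte markers also moved with genotype, with summed signals of 10835 and 15275 in blastocyst KO against 2289 and 5352 in blastocyst WT. Of these 8 markers 3 and 3 were above background in KO, against 5 and 3 in WT, and their part in the members' values was not tested. None of the genes of the other mitochondrial lists was called between the genotypes.

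In oocytes the single arrays differed by a median of -0.27 over the members, KO minus WT, with 48 of 79 lower in KO (46.7% of all genes), and this median turns to 0.63 when arrays are scaled to their hybridization controls, where that of all genes is 1.00. At least 2-fold, 15 members were higher and 13 lower in KO, against 23.9% and 12.3% of all genes. The median was 0.09 over all genes and -0.38 over the 2937 brightest. Many of these members were near background: 14 were above it in WT but not in KO, 3 in KO but not in WT and 8 in neither. Ndufa2, with 79.5 in KO and 722 in WT oocytes, was at least 2.16-fold lower in KO, and Cox8c, with 104 in KO and 461 in WT, at least 1.38-fold. Atp5g2, Atp5e and Uqcr11 were at least 3.56-fold, 2.94-fold and 2.55-fold higher in KO. Far above background on both arrays, Cox6a1 read 4255 in KO and 11654 in WT, and Ndufaf2 5558 in KO and 5697 in WT. Ndufb3 read 382 in KO and 1967 in WT, the KO value lying close to that array's background of 334. The ratio of 3′ to 5′ Actb probe sets was 6.68 on the KO and 33.4 on the WT oocyte array, and the median Bacillus control was 123 and 37.9. The part of these differences in the values was not tested.

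At implantation sites the direction was the opposite. The members' median, KO minus WT, was 0.37, with 57 of 79 higher in KO, where 43.3% of all genes were higher, but it became -0.29 with scaling to hybridization controls, where that of all genes is -0.78. The median of all genes was -0.13 without that scaling. Of the supernumerary subunits of complex I, 24 of 26 were higher in KO, with a median of 0.67, against 0.16 over the 2937 brightest genes. At least 2-fold, 7 members were higher and 2 lower in KO, against 6.12% and 15.9% of all genes. Ndufb3 read 7499 at KO and 2142 at WT implantation sites (1.81), Ndufa12 read 11056 in KO and 4695 in WT (1.24), and Atp5j2 read 3450 in KO and 1559 in WT (1.15). A further probe set of Atp5j2 was higher in KO too (0.69), while another was lower (-3.55), with a KO reading of 37.5, below background. Of the 4 members of complex II, 3 were lower in KO, with a median of -0.46, and Sdhc read 272 in KO and 698 in WT (-1.36). Sdhd was the exception, with 2309 in KO and 1563 in WT (0.56), but its other probe set was lower in KO (-2.21). Cox6a2 was not above background in KO (64.2) and read 355 in WT, which is at least 2.71-fold lower. Summed muscle markers were 18895 in KO and 29314 in WT, with 8 and 9 of 12 above background, and their part was not tested. With 1 array per genotype these are differences between arrays. A limma model of the 6 groups, added after the data were seen, takes the spread from the blastocyst pairs alone and assumes that the single arrays vary like them. In it no member was called at implantation sites (0% of all genes higher, 0.00851% lower), while at an unadjusted p under 0.05 there were 9 members higher and 1 lower in KO (2.32% and 4.98% of all genes). In oocytes it called 1 member, Ndufa2, lower in KO (adjusted p = 0.0468, against 0.0596% of all genes lower and 0.119% higher), and at an unadjusted p under 0.05 there were 7 higher and 12 lower (9.54% and 5.82% of all genes).

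**Figure D4:**
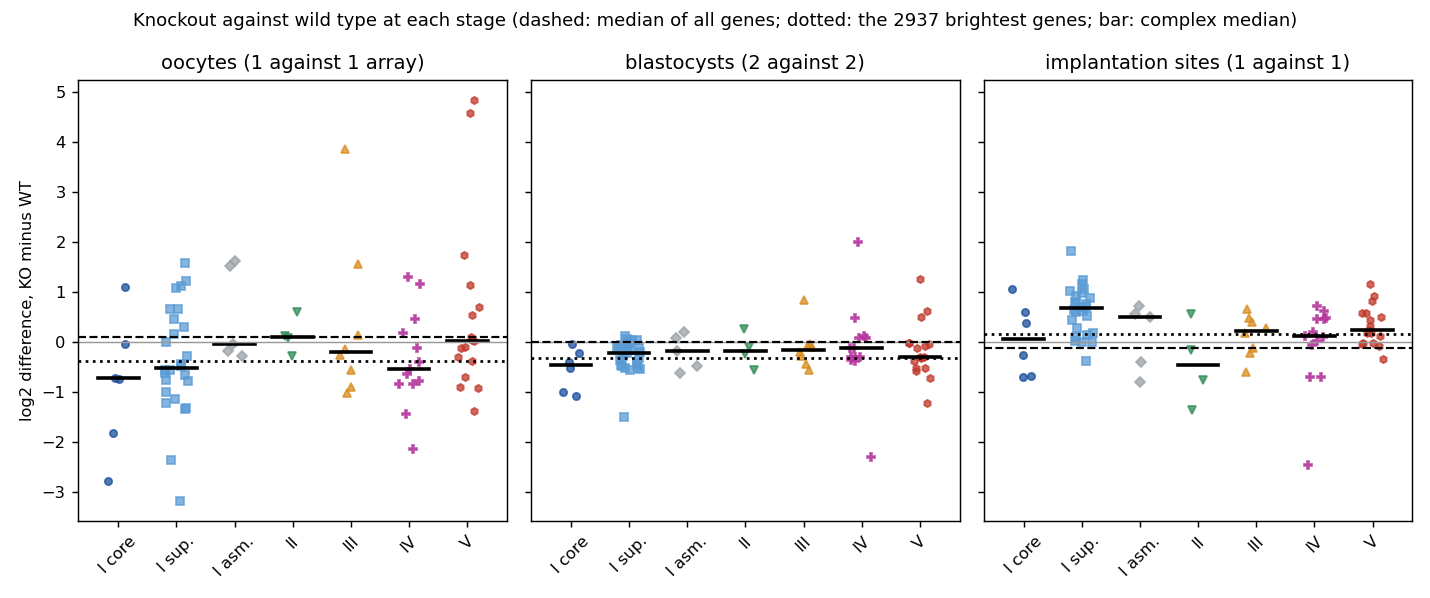
Log2 difference, KO minus WT, of each member kept in oocytes, blastocysts and implantation sites, grouped by complex along the horizontal axis, with a bar at each group's median and lines for all genes (dashed) and the 2937 brightest genes (dotted). Supernumerary complex I members lie mostly below 0 in oocytes (median -0.53) and blastocysts (-0.22) and mostly above 0 at implantation sites (0.67).

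Over the 3 stages together, 34 of 79 members (43%) were lower in KO in oocytes and blastocysts and higher in KO at implantation sites, a pattern of signs held by 16.2% of all genes but by 40% of the 2937 brightest, among which most members lie. Scaling to hybridization controls turns the members' medians in oocytes and at implantation sites, as given above. Complex I core subunits, by contrast, had a median near 0 at implantation sites (0.054), with Ndufs7 higher in KO (3947 against 1897) and Ndufs3 lower (788 against 1270). A genotype effect common to the stages was called for 0 members by limma over the 8 arrays (0% of all genes in either direction), with 0 members at an unadjusted p under 0.05, where 3.64% of all genes were higher and 3.28% lower, and a median of -0.09. Whether the KO differences change from stage to stage was not tested.

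The 11 members that did not pass the filter were Cox4i2, Cox6b2, Cox7a1, Cox7b2, Cox8b, Ndufa4l2, Ndufaf3, Ndufaf5, Ndufaf6, Ndufb1 and Ndufb4, of which Cox4i2 and Cox7b2 were above background on no array. Of the rest, Ndufb1 exceeded background on 1 array only, the blastocyst KO array where it read 505, and Cox8b, a muscle form, only in KO oocytes (490). Ndufa11, Ndufa11b, Ndufb4b, Ndufb4c, Ndufs6 and Ndufs6b share their probe sets with other genes, and Cox7b had no listed probe set. These genes were not analysed here.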

How the data were processed

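The 8 Affymetrix arrays hold RNA of mouse oocytes, blastocysts and implantation sites. The authors deposited 1 table of signal intensity, made with MAS5 per the submitters' processing notes (no version given). The values are linear, with a 2% trimmed mean of 500 on each array, with no detection calls, so the 15 Bacillus control probe sets served as background. Added Bacillus RNA, on which the sources are silent, would raise that level. Samples were grouped by the labels' stage and genotype.

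Of 45101 probe sets, 34945 were annotated to 1 gene and 932 to several, which were left out with 64 control probe sets. Each gene was read by its probe set of highest mean log2 signal over the arrays, and the upper 50% of probe sets (mean signal of at least 151) were kept. Members, gene lists and rules were chosen with earlier results of these data known.

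Blastocyst KO and WT were tested on their 4 arrays in R 4.3.3 by limma 3.58.1 (two-sided, lmFit, then eBayes with an intensity trend). Stage differences and a common genotype effect came from 1 additive limma model of stage and genotype over the 8 arrays. P-values were adjusted by Benjamini-Hochberg over 11745 genes. The fits were tested on simulated data. Probe sets whose dim group was below the brightest Bacillus control on all its arrays are given as "at least" folds, against the geometric mean of the higher of the control and the signal on each dim array. Adjusted p-values of such genes come from the measured signals. Promoters came from RefSeq (GRCm38.p6). Python 3.11.15 and matplotlib 3.10.9 drew the plots.

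Named members are, per comparison, the 6 largest called rises and falls, the 2 largest in each complex each way, and the core, complex II, isoform and c subunit lists. Outside the members, up to 3 genes per list are named. Others, such as those listed by stage pattern, were chosen after their values were seen.

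Alternatives were quantile normalization, a common median, a pseudocount of 38.7, no filter, the mean of all probe sets, probe sets without suffix, limma without trend, the replicate number as a block and leaving out each array. Scaling to the 18 hybridization controls and a limma model of the 6 groups over the 8 arrays were chosen after seeing the data. No label pairs KO with WT by number. Replicate 1 minus 2 in KO and in WT were correlated at 0.0184 across 11745 genes, which are not independent replicates, so the numbers were not taken as pairs.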

Additional observations from a re-analysis of the deposited data

Results flagged for a closer look

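The KO minus WT medians had opposite signs at different stages, in the members as a whole and in several complexes. These contrasts between stages were not tested. Over the members the median was 0.37 at implantation sites, against -0.27 in oocytes and -0.45 to -0.07 over the pairs of a KO and a WT blastocyst array. Supernumerary complex I subunits had 0.67 at implantation sites, against -0.53 in oocytes and -0.44 to -0.11 over the blastocyst pairs. Core subunits had 0.054 at implantation sites, against -0.73 in oocytes and -0.71 to -0.06 over the blastocyst pairs.

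Against oocytes alone, complex I assembly factors had 0.50 at implantation sites and -0.04 in oocytes, complex III 0.23 and -0.21, and complex IV 0.11 and -0.55. Complex II ran the other way, with -0.46 at implantation sites and 0.09 in oocytes. Scaling to hybridization controls turned the members' medians to 0.63 in oocytes and -0.29 at implantation sites.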

How the results depend on the processing

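No member was called between blastocyst KO and WT, or for the genotype over the stages, under any alternative (0), the replicate block and the 6-group model included (0 in blastocysts). The members' median rise from the oocyte kept its sign throughout. For blastocyst minus oocyte (2.02) it was 2.15 with quantile normalization, 1.86 with a common median, 1.88 with probe sets without suffix, 2.64 with hybridization controls and 1.98 to 2.24 without single arrays. For implantation site minus oocyte (2.09) it was 2.28 with a common median, 1.96 with the pseudocount, 1.84 with no filter, 1.76 with the mean of probe sets, 1.55 without suffix, 3.02 with hybridization controls and 1.81 to 2.27 without single arrays. Implantation site minus blastocyst (-0.15) was -0.36 with quantile normalization, 0.21 with a common median, -0.43 without suffix, 0.17 with hybridization controls and -0.48 to -0.062 without single arrays. The oocyte KO minus WT median (-0.27) was -0.82 with a common median, -0.11 with no filter, 0.072 with the mean of probe sets, 0.035 without suffix and 0.63 with hybridization controls. At implantation sites (0.37) it was 0.12 with quantile normalization, 0.78 with a common median, 0.25 with the mean of probe sets, 0.12 without suffix and -0.29 with hybridization controls. In blastocysts (-0.22) it was -0.11 with quantile normalization, -0.48 with a common median, -0.67 with hybridization controls, and -0.45 (without the array labelled WT replicate 2) to -0.10 (without WT replicate 1) when single arrays were left out. Scaling moves all genes too: with hybridization controls their median was 1.00 in oocytes, -0.46 in blastocysts and -0.78 at implantation sites, KO minus WT.

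Called members numbered 61 between blastocysts and oocytes, 40 without suffix (56 members measured) and 53 to 63 without single arrays. Between implantation sites and oocytes there were 56, 30 without suffix and 46 to 58 without single arrays. Between implantation sites and blastocysts there were 28, with 17 for a common median, 18 without suffix, 15 with hybridization controls, 17 without the trend and 16 (without the KO implantation site array) to 31 without single arrays. Under every alternative that measured them, 40 of the 58 members higher in blastocysts stayed called and 26 of the 53 higher at implantation sites, but 0 of the 8 and 0 of the 20 called between the later stages. With the mean of all probe sets, Sdha turned to 1.19 in blastocysts and 1.37 at implantation sites against oocytes, Ndufa10 to 0.61 at implantation sites against oocytes and Sdhd to -0.085 against blastocysts. Without suffix, Cox5a turned to 1.07 in blastocysts, Ndufaf8 to -0.049 at implantation sites against oocytes, and, between the later stages, Atp5c1 to 1.52, Cox6b1 to -2.05 and Ndufc1 to -0.83. Other causes of these shifts were not tested. The replicates carry a number only: with the replicate block no member was called (0).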

Other observations

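The blastocyst arrays of 1 genotype were also compared with each other in the members. Over the 79 kept, the median difference was 0.39 between the arrays labelled WT replicate 1 and WT replicate 2 and -0.01 between the KO replicates. At least 2-fold differences between replicates were found in 5 of the 79 members for KO and 3 for WT. Over all 11745 genes they were found in 2055 for KO and 2951 for WT, a larger share in both genotypes.

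Cox8c, known from testis, and the germ cell carrier Slc25a31 took opposite courses: Cox8c was above background on all 4 blastocyst arrays (1137 and 1253 in KO, 913 and 1405 in WT), while Slc25a31 read 135 and 35.5 in blastocyst KO and 257 and 143 in blastocyst WT, against 3226 and 3337 in KO and WT oocytes. Transcripts of Lyrm7, a complex III assembly factor that did not pass the filter, read 944 and 158 in KO and WT oocytes and 13.7 to 45.8 in blastocysts. Inner cell mass markers summed to 12859 and 13018 in blastocyst KO, against 22780 and 16565 in blastocyst WT, and their part in the members' values was not tested.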
